A study of Brassica rapa subsp. chinensis with 2 samples.

Results

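The UDP-glycosyltransferase (UGT) genes of *Brassica rapa* were described in stems of the wax-less line ‘CX001’ and of the line ‘FT’. A gene counted as a member when the description of its best protein match, as the deposited table gives it, held the words UDP-glycosyltransferase, with matches to 74B1 and 74C1 left out. This gave 120 of 33087 genes. Every best match was an Arabidopsis protein, and the genes fell on 70 different matches. Genes are called here by that match, such as UGT76C1, and by their ID, since 1 match can be shared by several *B. rapa* genes.

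UGTs of plants transfer a sugar, mostly glucose from UDP-glucose, to small molecules, and so change their solubility, storage and activity. In Arabidopsis, members of the family act on hormones (auxin, cytokinin, abscisic acid, salicylate, jasmonate and brassinosteroid), on flavonoids and anthocyanins, and on the hydroxycinnamates and monolignols from which sinapate esters and lignin are made. The family is old and large, often lies in tandem arrays, and most of its members in *B. rapa* are known by similarity only. Enzymes that make UDP-sugars supply the sugar donors that UGTs use.

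‘CX001’, whose stems lack visible wax, is a homozygous (doubled-haploid) flowering Chinese cabbage made by culture of microspores; its donor was ‘Super Grade 50 Sweet Flowering Chinese Cabbage’. ‘FT’, made in the same way from the Chinese cabbage ‘FT50’, has epidermal wax and is labelled as the control. By the methods of the study, germinated seeds were vernalized in the cold before planting. Stems of both lines were taken at bolting, without further treatment, with 3 libraries a line. Each line is 1 genotype of another crop type, so any locus that differs between them and the wax-less locus cannot be told apart, and a lower read count and a gene copy that is missing or too different in sequence to be read in 1 line cannot be told apart either. Whether the 3 libraries of a line came from separate plants is not given in the sources used here, so the p-values cover only the differences among these libraries, which may be technical.

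The deposited table holds 1 mean a line, but its means are written to 15 digits, and only 1 set of whole reads in the 3 libraries could give each of them. The reads in each of the 6 libraries were worked out in this way for 32911 of the 33087 genes and for all 120 UGT genes. They are given below as normalised read counts (reads divided by the size factor of the library), always in the same order of libraries (a, b and c of each line), first ‘FT’ and then ‘CX001’. That order is arbitrary and is not the numbering of the study. A library held 13229299 to 14944360 reads over these genes, and 15159 to 18507 over the UGT genes. Over all genes tested, libraries of 1 line correlated at 0.972 to 0.977 in ‘FT’ and 0.950 to 0.966 in ‘CX001’, and libraries of different lines at 0.735 to 0.775. Stem markers were read in both lines. Of 6 matches to the xylem proteases XCP1 and XCP2, 3 were called higher in ‘CX001’, and their summed level was 2331 to 3127 in ‘FT’ libraries and 4173 to 6319 in ‘CX001’ libraries. Of 3 matches to APL, which specifies phloem, 1 was called lower, with sums of 468 to 512 and 311 to 367, and none of the 3 matches to ATML1, a regulator of epidermis, passed (139.6 to 209 and 222 to 306). The part of these tissue markers in the UGT results was not tested, and in bulk stems fewer cells of a type and less RNA per cell cannot be told apart. The CER1 gene BraA09g066480.3C, an enzyme of wax alkane synthesis, averaged 16922 in ‘FT’ and 14.3 in ‘CX001’. The paper reports that this gene is lost from ‘CX001’ and could not be amplified there. Its ‘CX001’ libraries still held 5.66, 11.6 and 25.7, so a count near the minimum of 10 does not by itself show that a gene is present and read.

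Over all tested genes, a larger share of the UGT genes than of all genes differed between the lines, in both directions. Among genes that reached a mean of 10 in both lines, as given below, that held for the falls only. Of the 120, 83 reached a mean of 10 in at least 1 line and were tested with limma. A gene is called when its Benjamini-Hochberg adjusted p over 25817 genes is under 0.05 and its line means differ at least 2-fold. In ‘CX001’, 17 UGT genes were higher (20.5% of those tested, against 14.5% of all genes tested) and 22 were lower (26.5%, against 16.0%). Either call was made for 47.0% of the UGT genes tested and for 30.6% of all genes tested. The median size of the log2 ratio was 1.14 for the UGT genes and 0.63 for all genes, and the median log2 ratio itself was -0.20 and 0.01. The libraries of the lines did not overlap for 51 of the 83, or 61.4%, beside 59.3% of all genes tested. By the means alone, 21 of the 83 UGT genes were at least 2-fold higher, and so were 16.7% of all genes with that minimum. At least 2-fold lower were 24 of the 83, and 17.4% of all such genes.

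The rises and the falls lay at different levels. Of the 17 UGT genes that rose, 13 had a mean under 10 in ‘FT’ (76.5%, against 36.3% of the rises over all genes), and the median of the 17 was 1.96 in ‘FT’ and 27.0 in ‘CX001’. Of the 22 that fell, only 5 had a mean under 10 in ‘CX001’ (22.7%, against 30.4% of the falls over all genes), and their median was 134 in ‘FT’ and 22.7 in ‘CX001’. Among the 63 UGT genes whose means reached 10 in both lines, 4 rose (6.35%) and 17 fell (27.0%), beside 10.7% and 12.8% of all such genes. The shares by level, like those over all tested UGT genes, are descriptions, and their differences from all genes were not tested.

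**Figure D1:**
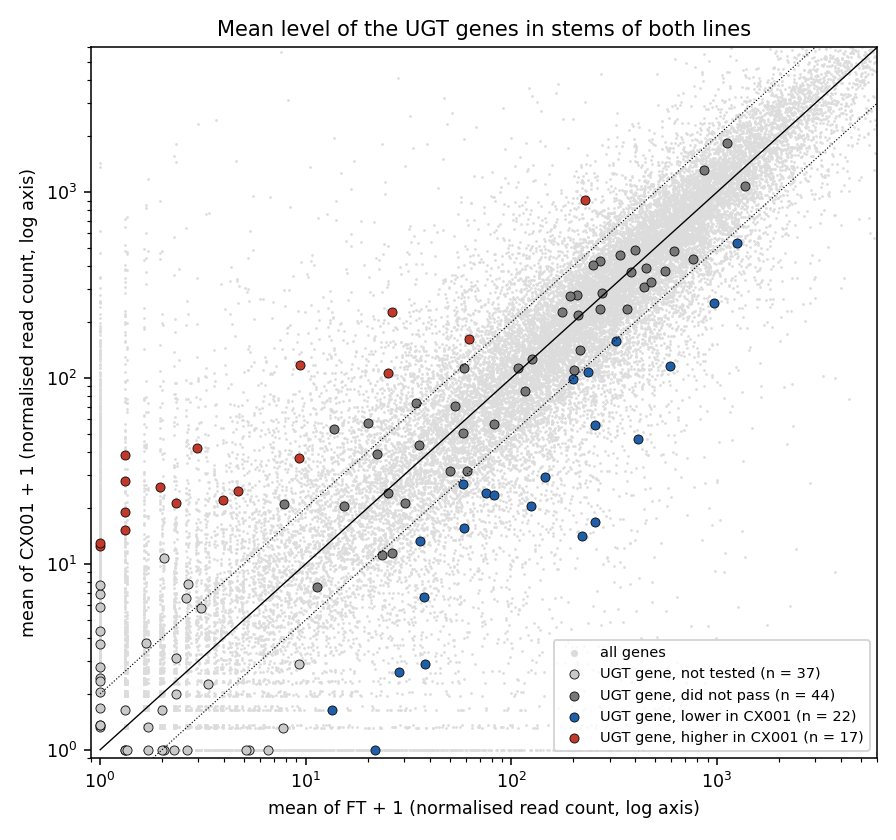
Mean normalised read count plus 1 of each gene in ‘FT’ (horizontal, log axis) and ‘CX001’ (vertical, log axis), with all genes in grey, the 120 UGT genes as outlined points, equal levels as a solid line and 2-fold differences as dotted lines. Most of the 17 genes higher in ‘CX001’ lie at the left edge, with ‘FT’ means under 10, while the 22 lower ones reach up to an ‘FT’ mean of 1252.

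A few genes held a large share of the UGT reads. The 10 genes with the highest means made up 49.9% of the family total in ‘FT’ and 52.5% in ‘CX001’, and 6 of the 10 were shared. The family total was 17165 in ‘FT’ and 15142 in ‘CX001’. Per 1000 bases of coding length, the order over both lines was led by the UGT84A1 match BraA03g046260.3C (755 in ‘FT’, 1245 in ‘CX001’), the UGT74E2 match BraA08g034260.3C (1007 and 791) and the UGT86A2 match BraA04g020090.3C (595 and 907). The UGT75C1 match BraA08g009740.3C came next (918 and 391 per 1000 bases). The first 3 did not pass the call, and the UGT75C1 match, described below, was called lower.

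The genes of hydroxycinnamate and monolignol glucosylation changed in both directions, with 2 of 11 tested higher (18.2%), 3 lower (27.3%) and 6 not passing. Over all genes tested 14.5% were higher and 16.0% lower. Most role groups hold few tested genes, so their counts here and below are descriptions only. The group includes matches to UGT72D1, while the UGT72B3 match that rose, given below, is counted outside it. UGT84A1 and UGT84A2 make glucose esters of hydroxycinnamates, and UGT84A2 that of sinapate, in Arabidopsis. The main UGT84A1 gene BraA03g046260.3C (A03:23426546-23428018) had normalised read counts of 834, 676 and 1825 in ‘FT’ and 1748, 1887 and 1865 in ‘CX001’. Library c of ‘FT’ was as high as those of ‘CX001’, so the lines overlapped, and the log2 ratio of 0.72 did not pass (adjusted p = 0.0566 from limma). Without that ‘FT’ library the log2 ratio was 1.28 and passed (adjusted p = 0.00088 from limma). The other UGT84A1 gene, BraA01g021270.3C (A01:11593177-11594607), rose from near silence, with 0.962, 0 and 0 in ‘FT’ and 36.8, 28.0 and 16.1 in ‘CX001’. It rested on 1 read in ‘FT’ and 83 in ‘CX001’, so its ‘FT’ mean was 1.19% of the ‘CX001’ mean (95% exact Clopper-Pearson interval 0.0302% to 6.91%, counting error only), with an adjusted p of 2.48e-04 from limma. Its log2 ratio of 6.39 was 4.76 without ‘FT’ library a and 5.81 without b or c.

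Of the 2 UGT84A2 genes, 1 fell in ‘CX001’ and the other stayed under 2-fold. BraA01g032130.3C (A01:21921546-21923039) had 768, 889 and 1232 in ‘FT’ and 413, 141 and 199 in ‘CX001’. Every ‘CX001’ library was below every ‘FT’ library, and the gene was 3.83-fold lower (limma log2 fold change -2.05 ± 0.37 SE, adjusted p = 0.00241). The other copy, BraA05g025550.3C (A05:19259289-19260782), had 545, 832 and 923 in ‘FT’ and 539.9, 283 and 490 in ‘CX001’. Its log2 ratio was -0.81 with an adjusted p of 0.0402 from limma, under the 2-fold minimum. In ‘CX001’ this second copy held 63.5% of the UGT84A2 level, whereas in ‘FT’ the first held 55.7%.

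Among the UGT72 genes, the largest difference with tight libraries was that of the UGT72D1 match BraA07g002140.3C (A07:1595752-1597185). In ‘FT’ its counts were 434, 444 and 357, and in ‘CX001’ they were 47.2, 47.3 and 42.8, 8.996-fold lower (limma log2 fold change -3.14 ± 0.18 SE, adjusted p = 9.5e-06). UGT72E1 to UGT72E3 glucosylate monolignols and their aldehydes in Arabidopsis. The UGT72E1 match BraA03g045200.3C, a model of only 444 coding bases, had 16.4, 9.63 and 35.8 in ‘FT’ and no read in any ‘CX001’ library, at least 20.7-fold lower against a floor of 3 reads for the whole line (adjusted p = 4.32e-04 from limma). Against that floor its log2 ratio was -4.37, and -3.71 without ‘FT’ library c. The reverse held for the UGT72E3 match BraA09g009450.3C, with no read in ‘FT’ and 9.44, 4.83 and 21.4 in ‘CX001’, a rise of at least 11.98-fold over that floor (adjusted p = 0.00159 from limma), though without ‘CX001’ library c its mean fell under the minimum of 10. The 3 tested matches to UGT72B1, which acts on xenobiotics and monolignols, had log2 ratios of 0.29, -0.65 and -0.87 and none reached 2-fold.

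Of the flavonoid and anthocyanin genes, 1 of 3 tested was lower and none higher. UGT75C1 adds a glucose to the 5 position of anthocyanins. Its match BraA08g009740.3C (A08:8627900-8629264) had 848, 1067 and 1843 in ‘FT’ and 587, 365 and 650.2 in ‘CX001’, 2.35-fold lower (limma log2 fold change -1.19 ± 0.31 SE, adjusted p = 0.014). The lowest ‘FT’ and the highest ‘CX001’ library lay fairly close, and the call was lost without ‘CX001’ library b (adjusted p = 0.0509 from limma) or without ‘FT’ library c (log2 ratio -0.84). The UGT78D2 match BraA02g006790.3C, a flavonoid 3-O-glucosyltransferase, had overlapping libraries at means of 616 and 483 (log2 ratio -0.35, adjusted p = 0.161 from limma).

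Cytokinin genes showed the largest fall among well-read UGT genes beside the rise of a low one. UGT76C1 N-glucosylates cytokinins. Its match BraA10g028630.3C (A10:18478139-18480645) had 289, 213 and 156 in ‘FT’ and 8.49, 10.6 and 20.4 in ‘CX001’. Every ‘FT’ library lay far above every ‘CX001’ library, and the mean was 16.7-fold lower (limma log2 fold change -4.004 ± 0.38 SE, adjusted p = 1.01e-04). UGT85A1 O-glucosylates zeatin. Of its matches, BraA07g014710.3C rose, from 0.962, 0.963 and 2.11 in ‘FT’ to 18.9, 9.65 and 32.1 in ‘CX001’ (15.04-fold, adjusted p = 0.00189 from limma), while its neighbour BraA07g014720.3C had means of 33.2 and 71.96 with overlapping libraries (log2 ratio 1.11, adjusted p = 0.051 from limma) and passed without ‘FT’ library a (log2 ratio 1.81, adjusted p = 0.00996).

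Auxin genes were called in both directions, and the most abundant one did not pass. Of 11 matches, 5 were tested, of which 3 were higher and 1 lower. The 3 higher ones had ‘FT’ means under 10, so they were tested only through their ‘CX001’ level. Matches to UGT74D1 and UGT76F1, which act on auxins or a precursor, are counted in other groups and given below. UGT74E2 glucosylates the auxin indole-3-butyric acid. Its match BraA08g034260.3C (A08:22292856-22294546) had 1142, 1562 and 1410.4 in ‘FT’ and 1070.3, 982 and 1178 in ‘CX001’. Libraries of the lines overlapped (log2 ratio -0.35, adjusted p = 0.0884 from limma). The 3 matches to UGT75D1, an auxin glucosyltransferase, went different ways. BraA08g011240.3C (A08:9833770-9835200) fell, from 45.2, 44.3 and 84.3 to 18.9, 16.4 and 8.57 (3.96-fold, adjusted p = 0.00595 from limma). BraA01g021150.3C rose, from a mean of 3.68 to 23.7 (adjusted p = 0.00795 from limma), and BraA03g046300.3C rose from a single read in ‘FT’ to 17.9, 14.5 and 21.4 (‘FT’ mean 1.79% of the ‘CX001’ mean, 95% exact interval 0.0461% to 10.8%, adjusted p = 3.09e-04 from limma). The log2 ratio of the latter was 5.81, and 4.18 without ‘FT’ library a or 5.22 without b or c. BraA08g011240.3C held 93.5% of the UGT75D1 level in ‘FT’, and BraA01g021150.3C held 42.1% of it in ‘CX001’. The UGT75B1 match BraA10g004380.3C rose from 6.74, 10.6 and 7.38 to 37.8, 29.0 and 41.8 (4.39-fold, adjusted p = 0.00203 from limma).

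Abscisic acid genes were called in both directions and no brassinosteroid gene was called. Of the 4 tested matches to abscisic acid glucosyltransferases, 1 rose and 1 fell. The UGT71C5 match BraA10g005910.3C had 25.03, 42.4 and 36.9 in ‘FT’ and 10.4, 11.6 and 14.997 in ‘CX001’, 2.82-fold lower (adjusted p = 0.0111 from limma). The UGT71B7 match BraA01g031990.3C was called higher, with 3.85, 1.93 and 3.16 in ‘FT’ and 8.49, 10.6 and 43.9 in ‘CX001’, but 1 high ‘CX001’ library carried the mean, and without it the gene fell under the minimum. The call was also lost without ‘FT’ library b (adjusted p = 0.0735) or c (adjusted p = 0.0585 from limma). The UGT71B6 match BraA05g025360.3C was at 116 and 83.7 (log2 ratio -0.47, adjusted p = 0.10 from limma). None of the 3 matches to UGT73C5, which glucosylates brassinosteroids, passed, and the highest of them, BraA05g008520.3C, had 236, 213 and 295 in ‘FT’ and 241, 263 and 711 in ‘CX001’. Only 1 ‘CX001’ library stood above ‘FT’ there (log2 ratio 0.71, adjusted p = 0.28 from limma).

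The few jasmonate and pathogen response genes that passed were lower, and none was higher. Of 3 tested jasmonate genes 1 was lower. UGT74D1 glucosylates jasmonates and auxins in Arabidopsis, and its match BraA03g016920.3C (A03:7854477-7856507) had 136, 154 and 142 in ‘FT’ and 26.4, 24.1 and 34.3 in ‘CX001’, 5.09-fold lower (limma log2 fold change -2.32 ± 0.24 SE, adjusted p = 1.6e-04). The other UGT74D1 gene, BraA04g022840.3C, was the higher of the pair in both lines and its libraries overlapped at means of 269.6 and 234 (log2 ratio -0.20, adjusted p = 0.527 from limma). Of 5 tested pathogen response genes, 2 were lower, both matches to UGT73B5, which is induced in defence. BraA07g005400.3C (A07:4221016-4222628) had 241, 239.8 and 223 in ‘FT’ and 63.2, 128 and 129 in ‘CX001’ (2.20-fold lower, adjusted p = 0.00917 from limma), and without ‘CX001’ library a its log2 ratio was -0.87. BraA08g027380.3C had 90.5, 51.0 and 80.1 in ‘FT’ and 9.44, 14.5 and 45.0 in ‘CX001’ (3.22-fold lower, adjusted p = 0.0208 from limma). With 1 library left out, that call was lost in 4 of 6 fits (adjusted p = 0.0572 without ‘CX001’ library a, 0.0701 without b, 0.0765 without ‘FT’ library a and 0.0711 without c, from limma), and without ‘CX001’ library c the log2 ratio went from -1.69 to -2.63. The main UGT73B3 match BraA08g016150.3C was at 475 and 326 (log2 ratio -0.54, adjusted p = 0.0278 from limma), under 2-fold.

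Salicylate genes changed in both directions. UGT74F1 and UGT74F2 glucosylate salicylate, and UGT71C3 methyl salicylate, in Arabidopsis. Of 6 tested, 1 was higher and 2 lower. The UGT71C3 match BraA09g053270.3C had 13.5, 14.4 and 9.49 in ‘FT’ and 1.89, 0 and 0 in ‘CX001’, 2 reads in all, so the ‘CX001’ mean was 5.05% of the ‘FT’ mean (95% exact interval 0.614% to 20.3%, counting error only, adjusted p = 0.00187 from limma). Its log2 ratio was -4.31, and -3.65 without ‘CX001’ library a. The higher UGT71C3 copy BraA10g005920.3C was at 107 and 113 with overlapping libraries (adjusted p = 0.798 from limma). The UGT74F2 match BraA05g003860.3C was without reads in ‘FT’ and at 23.6, 8.69 and 2.14 in ‘CX001’, which is a rise of at least 11.6-fold over the floor, but under the minimum without ‘CX001’ library a. The UGT74F2 match BraA03g023090.3C had 55.8, 57.8 and 58.0 in ‘FT’ and 15.1, 12.5 and 50.3 in ‘CX001’. It was called lower with the largest adjusted p of the 39 calls (0.049 from limma), and the call was lost in 5 of 6 fits with 1 library left out (adjusted p = 0.112 to 0.152 from limma), all but the one without ‘CX001’ library c, where the log2 ratio went from -1.14 to -2.05.

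The matches to TURAN, an enzyme of N-glycan assembly that acts on lipid-linked sugars and not on small hormones, did not reach 2-fold. BraA06g012540.3C had 189, 193 and 194 in ‘FT’ and 278, 273 and 269.9 in ‘CX001’, without overlap (log2 ratio 0.51, adjusted p = 0.0149 from limma). BraA09g058200.3C was at 174 and 226 (log2 ratio 0.38, adjusted p = 0.0888 from limma).

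**Figure D2:**
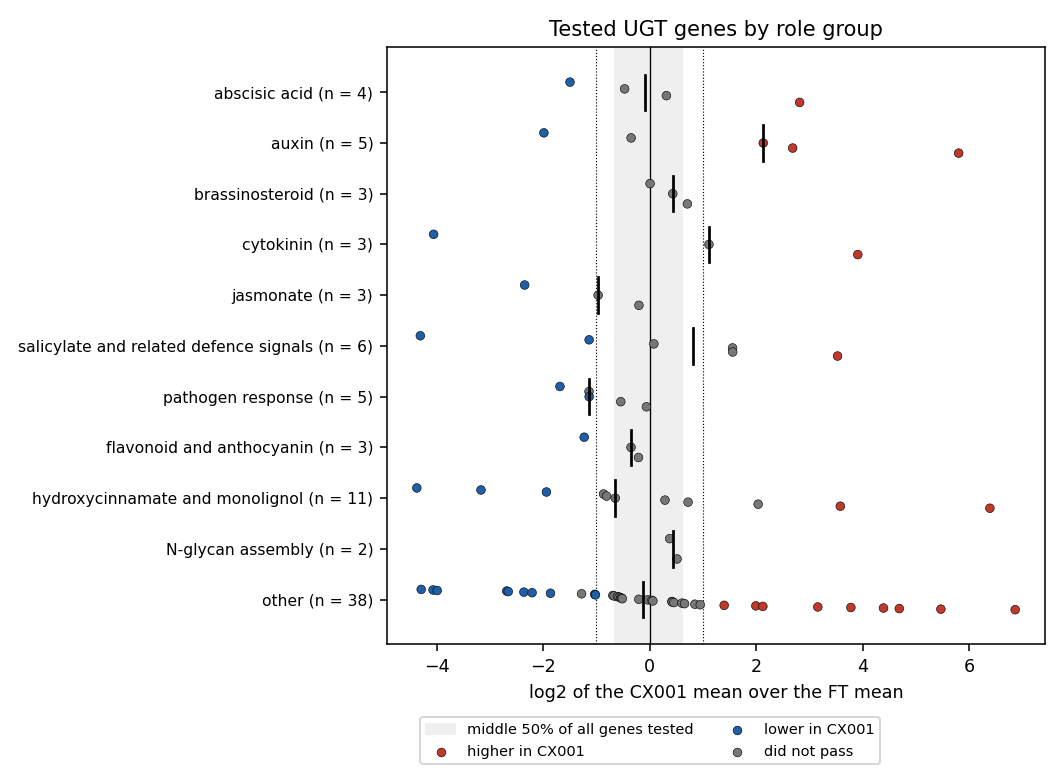
Log2 ratio of the line means (‘CX001’ to ‘FT’) for the 83 tested UGT genes by role group of the best match, with a line at 0 taken at the floor of 3 reads, the median of each group as a black bar, 2-fold as dotted lines and the middle 50% of all genes tested (-0.65 to 0.61) as a grey band. The hydroxycinnamate and monolignol group (n = 11) spans -4.37 to 6.39, while the brassinosteroid and N-glycan groups stay between 0.01 and 0.71.

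Of the 38 tested genes outside these role groups, 9 were higher (23.7%) and 10 lower (26.3%), beside 14.5% and 16.0% of all genes tested. The falls included matches to UGT71 genes, some of them neighbours, while the tested matches to UGT71B5, UGT71C2 and UGT71C4 did not pass. The UGT71D1 match BraA05g014480.3C (A05:8214140-8215540) had 354, 228 and 176 in ‘FT’ and 25.5, 12.5 and 9.64 in ‘CX001’, 15.9-fold lower (limma log2 fold change -3.96 ± 0.41 SE, adjusted p = 1.5e-04). The other UGT71D1 gene, BraA03g024680.3C, was at 208 and 278 and did not pass (log2 ratio 0.42, adjusted p = 0.122 from limma). All 3 matches to UGT71B2 were lower. BraA03g040000.3C (A03:19853914-19855380) had 582, 553 and 636 in ‘FT’ and 98.2, 81.1 and 165 in ‘CX001’ (5.14-fold, adjusted p = 1.62e-04 from limma), its neighbour BraA03g040010.3C (A03:19855992-19857425) had 128, 138 and 103 and then 14.2, 5.79 and 38.6 (6.31-fold, adjusted p = 0.00379 from limma), and BraA05g025380.3C was at 319.9 and 156 (2.05-fold, adjusted p = 0.00901 from limma). The last of them is at the edge of the call, and its log2 ratio was -0.93 without ‘CX001’ library a, -0.83 without b and -0.99 without ‘FT’ library a. That of BraA03g040010.3C was -2.66, and -3.62 without ‘CX001’ library c.

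Both tested genes of the UGT87 family were lower, and UGT87A2 influences flowering time in Arabidopsis. The UGT87A1 match BraA05g014090.3C (A05:7943775-7945296) had 272, 207 and 284 in ‘FT’ and 29.3, 70.4 and 65.3 in ‘CX001’ (4.62-fold, adjusted p = 0.00106 from limma). The UGT87A2 match BraA03g016050.3C had 276, 164 and 157 in ‘FT’ and 101, 98.4 and 95.3 in ‘CX001’ (2.03-fold, adjusted p = 0.0128 from limma), and its log2 ratio was -0.71 without ‘FT’ library a and -0.997 without ‘CX001’ library c, both under 2-fold. UGT76F1 glucosylates the auxin precursor indole-3-pyruvic acid. Its match BraA09g046480.3C fell from 66.4, 100.1 and 78.01 to 9.44, 39.6 and 18.2 (3.64-fold, adjusted p = 0.00974 from limma), and its log2 ratio of -1.86 was -2.56 without ‘CX001’ library b. The other match BraA07g022140.3C rose from 28.9, 10.6 and 32.7 to 52.9, 177 and 85.7 (4.37-fold, adjusted p = 0.0152 from limma), a call lost without ‘CX001’ library b (log2 ratio 1.53 in place of 2.13, adjusted p = 0.0563). The first held 77.2% of the UGT76F1 level in ‘FT’ and the second 82.4% in ‘CX001’.

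The rises among genes well read in at least 1 line were few. The UGT86A1 match BraA05g008390.3C (A05:4322367-4324041) had 218, 153 and 309.9 in ‘FT’ and 826, 1034 and 853 in ‘CX001’, 3.99-fold higher (limma log2 fold change 2.04 ± 0.24 SE, adjusted p = 3.23e-04). The UGT91C1 match BraA09g027690.3C (A09:18912129-18913532) had 22.1, 11.6 and 42.2 and then 189, 327 and 162 (8.93-fold, adjusted p = 8.89e-04 from limma); in Arabidopsis UGT91C1 glucosylates a herbicide. The UGT72B3 match BraA10g000550.3C (A10:267595-269046) had 9.62, 1.93 and 13.7 and then 129, 124 and 93.2 (13.7-fold, adjusted p = 9.53e-04 from limma). With an ‘FT’ mean of 8.42, under 10, this gene was tested only through its ‘CX001’ level. The log2 ratio of the UGT91C1 match was 3.16, and 3.75 without ‘FT’ library c. In all of these the lowest ‘CX001’ library lay above the highest ‘FT’ library. The UGT90A2 match BraA08g032070.3C was at 52.0, 27.0 and 104 and then at 139.7, 203 and 141 (2.64-fold, adjusted p = 0.0206 from limma), and it lost its call without ‘CX001’ library b (adjusted p = 0.0769) or ‘FT’ library a (adjusted p = 0.0608), while without ‘FT’ library c its log2 ratio rose to 2.03.

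**Figure D3:**
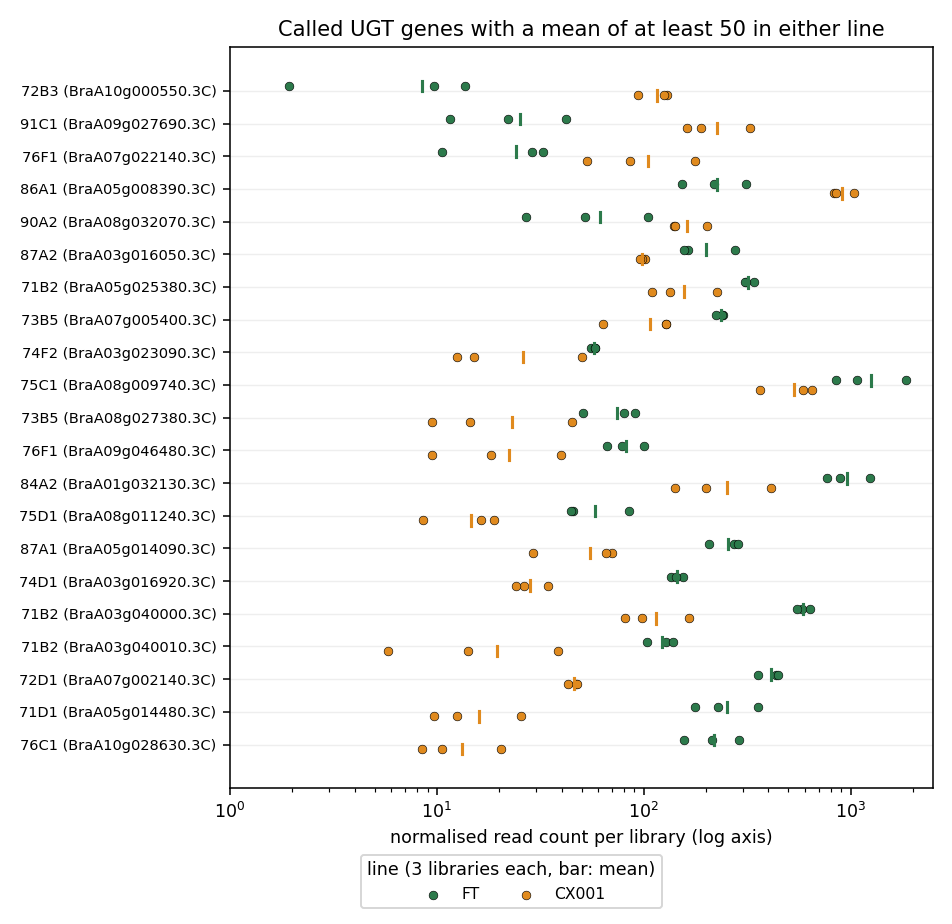
Normalised read count in each of the 3 ‘FT’ (green) and 3 ‘CX001’ (orange) libraries, on a log axis, for the called UGT genes whose mean reached 50 in at least 1 line, ordered by log2 ratio, with the line mean as a bar. None of these genes has overlapping lines, and 16 of the 21 lie lower in ‘CX001’.

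Several UGT genes were read in 1 line and hardly or not in the other. At most 3 reads over the 3 libraries of ‘FT’ and more than 3 over those of ‘CX001’ were found for 17 genes, of which 10 had no read in ‘FT’. The reverse held for 9 genes, of which 6 had no read in ‘CX001’. The level in the other line reached the minimum of 10 for 7 of the 17 and 2 of the 9, and these 9 were all called, as a gene near 0 in 1 line that reaches the minimum in the other must differ. The largest of them was the UGT92A1 match BraA10g025800.3C (A10:17304631-17306091), with 0, 0.963 and 0 in ‘FT’ and 17.9, 36.7 and 57.8 in ‘CX001’. Its single ‘FT’ read stood against 111 in ‘CX001’, so the ‘FT’ mean was 0.856% of the other (95% exact interval 0.0226% to 5.13%, counting error only). Its log2 ratio of 6.87 was 5.24 without ‘FT’ library b, where ‘FT’ is then taken at the floor, and 6.28 without a or c. The UGT76E5 match BraA06g020200.3C rose from 4.81, 0 and 1.05 to 46.2, 20.3 and 56.8 (adjusted p = 0.00192 from limma), with log2 ratios of 3.81 without ‘FT’ library b and 6.28 without a. The rise of the UGT73C2 match BraA04g026080.3C was from 3 reads in 1 ‘FT’ library to 15.1, 14.5 and 45.0 (‘FT’ mean 3.87% of the ‘CX001’ mean, 95% exact interval 0.829% to 12.5%, adjusted p = 0.00255 from limma), and its log2 ratio of 4.69 was 3.94 without ‘CX001’ library c and 4.11 without ‘FT’ library a or c. In the other direction, the UGT79B5 match BraA01g016490.3C, a model of 576 coding bases, fell from 25.03, 31.8 and 25.3 to 1.89, 1.93 and 1.07 (adjusted p = 2.13e-04 from limma).

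Copies of the same match were not always called alike. Of the 70 matches, 31 had 1 gene and 39 had at least 2, which together held 89 genes. At least 2 copies were tested for 19 matches. In 4 of these (UGT74F2, UGT75D1, UGT76F1 and UGT86A1) 1 copy or more rose while another fell, and for UGT74F2 and UGT76F1 that rests on calls lost when single libraries are left out (for UGT76F1, the rise of BraA07g022140.3C). In 2 (UGT71B2 and UGT73B5) every tested copy fell, in 6 none passed, and in 8 some copies passed and others did not, UGT74F2 among them. A pass in 1 copy and none in another does not show that the copies differ, and differences between copies were not tested. The copy with the highest mean was not the same in both lines for 5 of the 19 (UGT71B2, UGT71D1, UGT75D1, UGT76F1 and UGT84A2). Near-identical copies may share reads, and how the authors treated reads that align to several places is not given in the sources used here, so a split between copies is less certain than the sum over them.

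**Figure D4:**
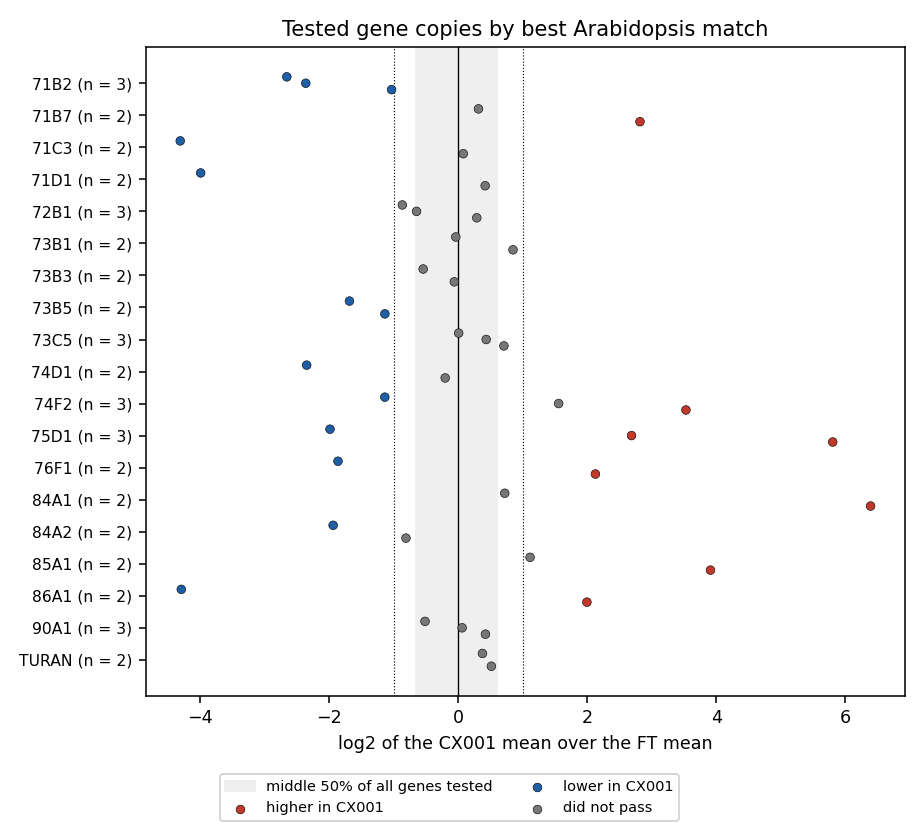
Log2 ratio of the line means (‘CX001’ to ‘FT’) for each tested copy of the 19 matches with at least 2 tested copies, with 2-fold as dotted lines, the middle 50% of all genes tested as a grey band, and a line at 0 taken at the floor of 3 reads. Points of 1 row on both sides of 0 are copies of 1 match that differ in direction, as for UGT75D1 (-1.99 and 5.81) and UGT86A1 (-4.29 and 1.995).

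Called UGT genes lay both inside and outside clusters of neighbouring UGT genes. With at most 3 other genes between neighbours, 62 UGT genes lay in 24 clusters (15 pairs and 9 of at least 3 genes, the largest of 5) and 58 lay outside. In clusters 8 genes rose (19.5%) and 10 fell (24.4%) of 41 tested, and outside 9 rose (21.4%) and 12 fell (28.6%) of 42. Over all genes tested these shares were 14.5% and 16.0%. Of the 15 clusters with at least 2 tested genes, 1 had no call, 11 had a single called gene and 3 had 2. Either call was made for 47.0% of all tested UGT genes, and whether neighbours depart from that was not tested. The pair of UGT86A1 matches on A05 (A05:4322367-4341002) held a gene that rose and a gene that fell. BraA05g008390.3C rose as given above, and BraA05g008410.3C had 11.6, 52.0 and 47.4 in ‘FT’ and 5.66, 0 and 0 in ‘CX001’ (19.6-fold lower, adjusted p = 0.00573 from limma). The log2 ratio of the latter was -4.29, and -5.22 without ‘CX001’ library a and -3.71 without b or c. The other 2 clusters with 2 calls held falls only, the UGT71B2 pair beside a UGT71B7 match on A03 (A03:19853914-19865070), and UGT71B2 with UGT71B1 on A05 (A05:19058981-19105558), where BraA05g025390.3C fell from 32.7, 36.6 and 40.1 to 1.89, 8.69 and 6.43 (6.43-fold, adjusted p = 0.00293 from limma).

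In clusters of at least 3 genes, called genes lay beside genes that did not pass. On A05 (A05:4435941-4449978), 5 matches to UGT73C5, UGT73C3 and UGT73C1 lie in a row. The UGT73C5 genes at its start did not pass, while the UGT73C3 match BraA05g008560.3C went from 1 read in ‘FT’ to 16.99, 9.65 and 16.1 in ‘CX001’ (‘FT’ mean 2.25% of the ‘CX001’ mean, 95% exact interval 0.0576% to 13.7%, adjusted p = 6.27e-04 from limma). Its log2 ratio was 5.47, and 3.84 without ‘FT’ library a. On A10 (A10:18478139-18489827), the UGT76C1 gene that fell 16.7-fold lies 3 genes or fewer from the UGT76C4 match BraA10g028660.3C, whose product N-glucosylates nicotinate in Arabidopsis and which had 552, 602 and 519 in ‘FT’ and 387, 318 and 418 in ‘CX001’ (log2 ratio -0.57, adjusted p = 0.0115 from limma), under 2-fold. On A06, the UGT76E5 gene that rose lies beside the UGT76E12 match BraA06g020210.3C, at 450.3 and 391 with overlapping libraries (adjusted p = 0.225 from limma). On A08, the 3 matches to UGT73B1 and UGT73B3 had log2 ratios of 0.85, -0.54 and -0.06, and none passed.

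**Figure D5:**
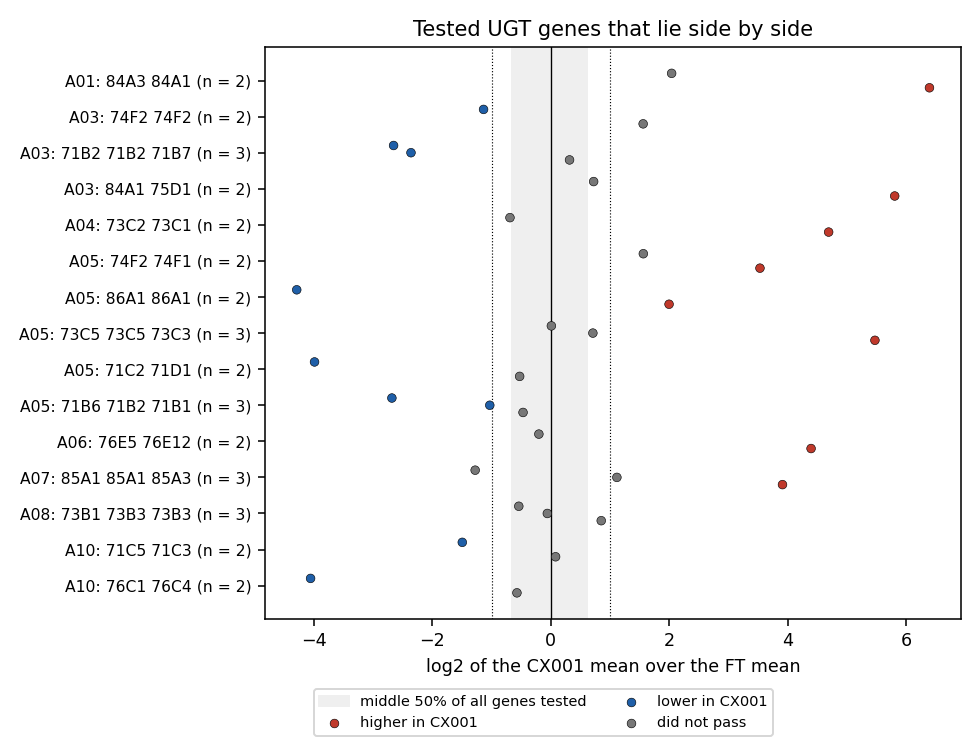
Log2 ratio of the line means (‘CX001’ to ‘FT’) for tested UGT genes in the 15 clusters with at least 2 tested genes, named by chromosome and best matches in chromosome order, with 2-fold as dotted lines, the middle 50% of all genes tested as a grey band, and a line at 0 taken at the floor of 3 reads. In 11 clusters a single gene is called, and the pair of UGT86A1 matches holds a call in each direction.

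The gene models of the family were compact. In 61 of the 120 (50.8%) the span on the chromosome equalled the coding length, so that the model has no intron, beside 19.7% of all genes. The median coding length was 1416 bases (279 to 1671), against 1056 over all genes. Models under 1000 bases numbered 13, and 4 of them were tested.

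The UGT genes varied more between the libraries of a line than other genes did. Among genes whose means reached 50 in both lines, the median coefficient of variation of the UGT genes was 16.1% in ‘FT’ and 23.8% in ‘CX001’, beside 12.9% and 14.4% of all genes. The tested UGT genes were also read less, with a median mean of 73.9 in ‘FT’ and 55.7 in ‘CX001’ against 204 and 191 over all genes tested, and the part of that in the wider spread was not tested. Correlations between ‘CX001’ libraries over the tested UGT genes were 0.881 to 0.940, and those between ‘FT’ libraries 0.960 to 0.967. ‘FT’ library c was the highest of its line for 36 of the 83 tested (43.4%, against 36.1% of all genes tested). ‘CX001’ library c was so for 37 of the 83 (44.6%, against 33.3%). The UGT71C2 match BraA05g014470.3C was an extreme case, with 35.6, 17.3 and 34.8 in ‘FT’ and 0, 1.93 and 58.9 in ‘CX001’, and did not pass (adjusted p = 0.166 from limma).

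The genes that make or convert UDP-sugars rose more often than they fell. Of 55 such genes 45 were tested, of which 10 were higher (22.2%) and 3 lower (6.67%), beside the 14.5% and 16.0% of all genes tested given above, and their median log2 ratio was 0.56. With single libraries left out, 3 of those rises and 1 of the falls lost the call in at least 1 fit. Of the 10 not tested, 6 lay under the minimum and 4 had a mean above 10000, where reads per library were not worked out. These 4 passed that limit in ‘CX001’ only, with means of 10401.6 to 11914.5 there and 3922.75 to 5486.67 in ‘FT’. The sign of their log2 ratios (0.94 to 1.41) thus follows from the limit and adds nothing to the count of rises. By the means alone, 16 of 49 were at least 2-fold higher and 3 at least 2-fold lower. Sucrose synthase makes UDP-glucose from sucrose. Its SUS1 match BraA03g009830.3C had 718, 588 and 748 in ‘FT’ and 1313, 2672 and 6210 in ‘CX001’ (log2 ratio 2.31, adjusted p = 0.00829 from limma). The lines did not overlap, but the ‘CX001’ libraries spread widely, and without ‘CX001’ library c the log2 ratio was 1.54. The SUS3 match BraA09g001880.3C was at 12.5, 4.81 and 8.43 and then at 3.78, 84.9 and 141 and did not pass (adjusted p = 0.161 from limma). The UDP-glucose 4-epimerase match UGE1 (BraA06g009010.3C) had 398, 749 and 496 in ‘FT’ and 139.7, 101 and 139 in ‘CX001’ and fell (adjusted p = 3.5e-04 from limma), as did UGP3 (BraA09g046780.3C), a uridylyltransferase of the chloroplast, from a mean of 595 to 255 (adjusted p = 0.00181 from limma). The more abundant uridylyltransferases had higher means in ‘CX001’. UGP1 (BraA03g007910.3C) was at 1857 and 3405, under 2-fold (adjusted p = 0.00113 from limma), and UGP2 (BraA05g041780.3C), not tested, at 5443 and 10425. Of 4 sterol glucosyltransferases of the UGT80 family, which the family words of the description do not cover, 1 rose, the UGT80A2 match BraA03g033060.3C, from 33.7, 37.6 and 43.2 to 261, 195 and 236 (adjusted p = 6.0e-05 from limma).

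Of the 37 UGT genes under the minimum in both lines, the highest mean was 9.78 and the median of the higher line was 1.63. They were left out of the test by that minimum, and 12 of them stayed under 1 in both lines, at most about 3 reads a line. With no minimum, limma called 8 of the 37, 3 higher and 5 lower in ‘CX001’.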

How the data were processed

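Stems of ‘FT’ and ‘CX001’ gave 3 libraries a line. The authors aligned reads with HISAT2, with TopHat2 also named in the submitters' processing notes, and used StringTie and DESeq2. The genome build and the versions of HISAT2 and DESeq2 are not given in the sources used here, though the gene IDs are those of the *B. rapa* V3.0 genome that the study names. The table gives signal values that the authors deposited as 1 mean of normalised read counts per line. The columns of the authors' fold changes and p-values were not used. Each mean is a sum of whole reads times 1 step per library. For means up to 10000 exactly 1 solution was found within 1.25 units of the 15th digit for each of 32911 genes (176 lie above), and size factors recomputed from the solved reads differed from the steps by at most 0.110%. Neither these reads nor their library order are in the table.

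Genes whose mean reached 10 in at least 1 line were tested with limma 3.58.1 (R 4.3.3, trend) on log2(normalised reads + 1), adjusted over 25817 genes. Fold changes by limma are on that scale and understate low genes. A floor of 3 reads over a line was used where a line was at 0, and exact Clopper-Pearson intervals at 95% cover counting error only. Named were the 12 largest ratios each way with a mean of at least 50, the 6 highest genes, the highest of each role group, and those at 10 or more in clusters of at least 3. Further genes (others called, copies, UGT71C2, UGT80A2) were chosen after their values were seen. Members, lists and roles were chosen with earlier results of these data known. UGT84A3, written with the flavonoid group in the plan, was counted with the hydroxycinnamates. Alternatives were other minimums, folds, pseudocounts, scalings, precision weights, and leaving out libraries. In simulated data the solving and the test were checked. Python 3.11.15, numpy 2.4.6 and pandas 2.3.3 were used.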

Additional observations from a re-analysis of the deposited data

How the results depend on the processing

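With single libraries left out, the count of UGT genes higher in ‘CX001’ was 16 to 19 (17 with all) and that of lower ones 18 to 24 (22 with all). Of the 39 calls, 33 to 37 remained in each of the 6 fits, none changed sign, and 11 were lost in at least 1 fit. The log2 ratios of 16 moved by over 1.5-fold in at least 1 fit, with no change of sign, and 9 of the 16 had under 10 reads in 1 line. With a minimum mean of 50 in either line, 6 were higher by limma, and by the means alone 8 were at least 2-fold higher, since most rises lie below that level. With a fold minimum of 4, 12 were lower by the means alone (24 at 2-fold), and with 1 member per gene cluster 13 were higher (21 over all members). Precision weights, pseudocounts of 0.5 and 10, and the median of all genes set to 0 kept 38 or 39 of the 39 calls. Making the line totals equal shifted log2 ratios by -0.05. Those alternatives on the test per library, other than leaving out libraries, were chosen after seeing the data.

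No paired analysis was possible because the order of the solved libraries is arbitrary and they cannot be matched to the library numbers of the study. With no minimum mean, also chosen after seeing the data, 20 were higher and 26 lower by limma, with 38 of the 39 calls kept and 8 more made among the 37 genes left out by the minimum. The test rests on 3 libraries a line of unknown origin, and on single genotypes.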
